A study of Arabidopsis thaliana with 6 samples.

Results

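The genes described here belong to monolignol synthesis, which makes the building blocks of lignin, or to the laccases, some of which join them. They are 19 genes of monolignol synthesis (*PAL1* to *PAL4*, *C4H*, *4CL1*, *4CL2*, *4CL3*, *4CL5*, *HCT*, *C3H*, *CSE*, *CCoAOMT1*, *CCR1*, *CCR2*, *F5H*, *COMT1*, *CAD4* and *CAD5*) and the laccase family *LAC1* to *LAC17*. These are 36 of the 33318 named genes in the tables. They were listed by gene identifier and not by a cut on any measured value, but with earlier results of these data known. Of the 36 genes, 28 had enough reads to be tested and 8, all laccases, did not.

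Transcripts were measured by RNA-seq in second internodes of *Arabidopsis* inflorescence stems. All plants carried *pPXY:GR-ARF5∆III/IV*. In this line the *PXY* promoter, active in cambium stem cells, drives the auxin response factor ARF5 without its domains III and IV, fused to the hormone-binding part of the glucocorticoid receptor (GR), so that dexamethasone (Dex) lets the protein enter the nucleus. In the mock group 3 libraries came from plants dipped in and watered with a mock solution, which held the ethanol solvent without Dex. In the Dex group 3 libraries came from plants kept for 3 h with 15 µM Dex. Dex-treated plants without the transgene were not analysed here, so an effect of Dex itself and an effect of GR-ARF5∆III/IV cannot be told apart. The methods give 3 plants per replicate, while the deposited description speaks of RNA of 3 samples being pooled. Which of these a library holds is not stated, and the p-values measure the spread between these libraries only.

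Lignin is a polymer of phenolic alcohols, the monolignols, that stiffens and waterproofs the walls of xylem vessels and fibres. Monolignols are made from phenylalanine: the amino group is removed, the ring is hydroxylated and methylated in steps that set the type of unit, and the side chain is reduced to an alcohol. In the wall, laccases, which are copper enzymes that use oxygen, and class III peroxidases, which use hydrogen peroxide, oxidise the monolignols so that they couple.

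The libraries held 22871927 to 32099136 reads in genes. In a principal component analysis of all genes tested, the first component (49.4% of the variance) had mock replicates 1 and 3 at −50.4 and −50.6, the Dex libraries at 30.1 to 44.2 and mock replicate 2 at −9.75. On the second component (20.6%) mock replicate 2 lay at −54.1 and the other libraries at −2.23 to 21.6. Counts below are therefore also given without it. Summed levels of 8 xylem wall and vessel genes, the tissue in which lignin is made, were 5173 to 5935 CPM (gene reads scaled to library size) in mock and 4458 to 6135 CPM in Dex libraries, and none of the 8 passed the test or had an unadjusted p under 0.05.

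By RPKM (exon reads relative to exon length and sequencing depth), the only scale here on which genes are compared with each other, the order of levels in the mock libraries was led by both methyltransferases. *CCoAOMT1*, which methylates caffeoyl-CoA, had a mean of 1669 RPKM, and *COMT1*, which methylates the ring of the later aldehydes and so is needed for syringyl units, 1102 RPKM. The genes from the entry of the pathway to the last reduction followed within a narrower range, with *C4H* at 475, *HCT* at 381, *4CL1* at 360, *PAL1* at 346, *CSE* at 337, *CAD5* at 321, *CCR1* at 237, *C3H* at 206 and *F5H* at 162 RPKM. *LAC4*, known as a laccase of stem lignification, was the highest laccase at 595 RPKM and the third of all 28. Where a step has several genes, 1 of them held most of the level. *PAL1* made up 54.5% to 59.4% of the summed PAL level over the 6 libraries, *4CL1* 88.7% to 90.9% of 4CL, *CAD5* 72.7% to 79.1% of CAD and *CCR1* 99.2% to 99.7% of CCR.

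**Figure D1:**
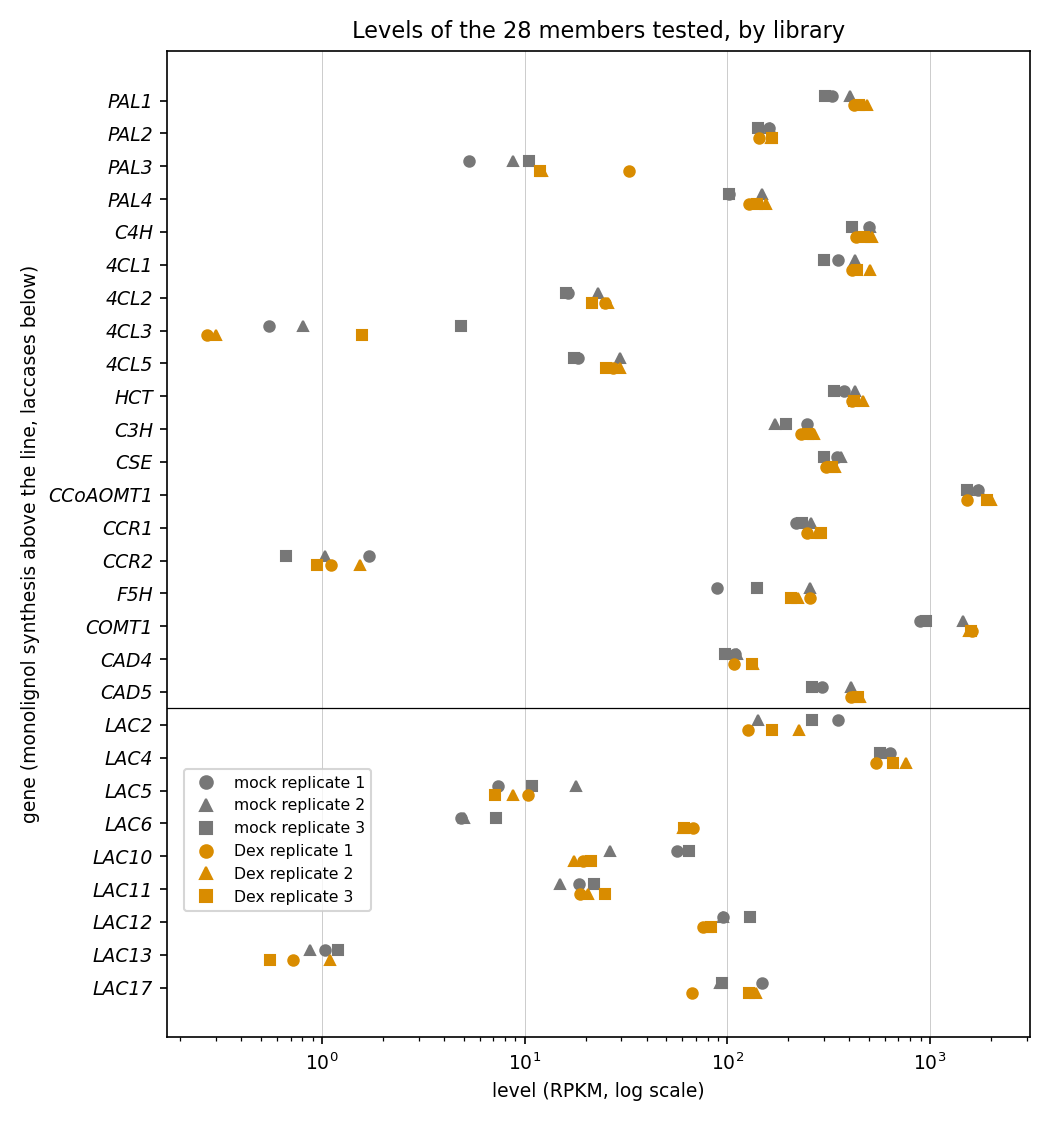
Levels in RPKM (log axis) of the 28 genes tested, one point per library, with mock libraries in grey and Dex libraries in orange. *CCoAOMT1* and *COMT1* were highest, *CCR2*, *4CL3* and *LAC13* lowest, and *LAC6* is the gene whose mock and Dex libraries lie farthest apart.

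After 3 h of Dex, none of the 19 monolignol genes passed the test (edgeR quasi-likelihood test, Benjamini-Hochberg adjusted p under 0.05), against 6.69% of all 19347 genes tested. Their adjusted p ran from 0.117 to 0.997. At an unadjusted p under 0.05, 5 genes were higher (*PAL1*, *PAL3*, *4CL2*, *COMT1* and *CAD5*) and none lower, where the shares over all genes were 12.4% higher and 10.2% lower. The log2 fold change was above 0 for 16 of 19, beside 9383 of all 19347 genes tested. Its median was 0.24, beside −0.01 over all genes. DESeq2 called 1 of the 19, *COMT1* (log2 fold change 0.49, adjusted p = 0.0343), and 7.23% of all genes higher. Without mock replicate 2, 7 of the 19 passed and were higher (*PAL1*, *PAL4*, *4CL2*, *4CL5*, *F5H*, *COMT1* and *CAD5*), with 9.79% of all genes higher in that fit.

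**Figure D2:**
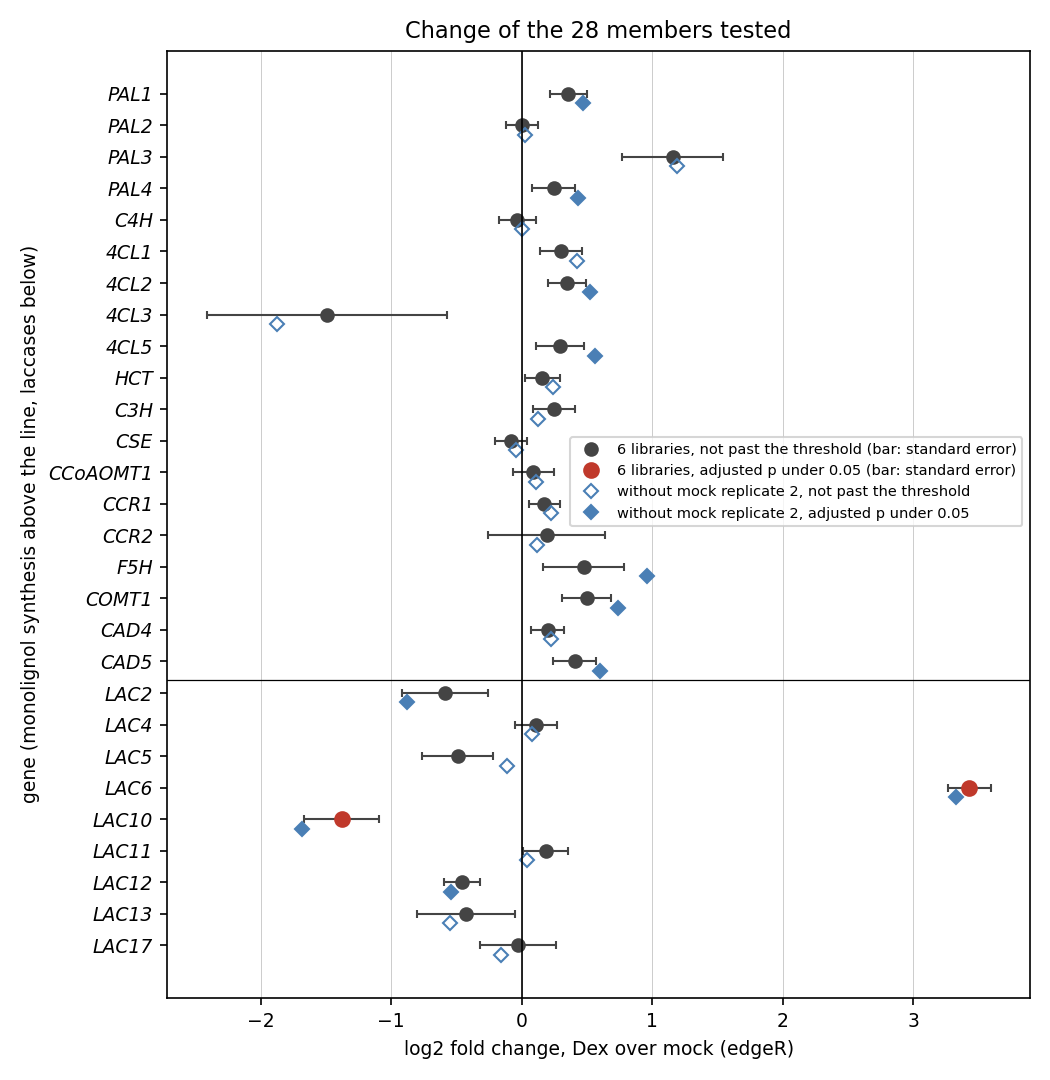
Log2 fold change of Dex over mock (edgeR) for the 28 genes tested, with circles and standard error bars for all 6 libraries and diamonds for the fit without mock replicate 2. Red circles and filled diamonds mark an adjusted p under 0.05: with all 6 libraries these are *LAC6* (3.43) and *LAC10* (−1.38).

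At the entry of the pathway, PAL removes ammonia from phenylalanine. *PAL1* (AT2G37040) had 866, 1016 and 780 CPM in mock replicates 1 to 3 and 1036, 1233 and 1141 CPM in Dex replicates 1 to 3. The groups did not overlap, but mock replicate 2 was close to the lowest Dex library. The log2 fold change was 0.36 ± 0.14 (SE) and did not pass (edgeR adjusted p = 0.182). Without mock replicate 2 it was 0.47 with an adjusted p of 0.0439. *PAL3*, the least abundant PAL gene, had 13.7, 21.7 and 26.6 CPM in mock and 78.5, 30.1 and 29.9 CPM in Dex libraries. Dex replicate 1 stood apart from the other 2 Dex libraries, which lay just above the highest mock library (log2 fold change 1.16 ± 0.39, edgeR adjusted p = 0.117). *PAL2* and *PAL4*, at 268 to 423 CPM, had log2 fold changes of 0.00 and 0.24.

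Taken as shares of the summed PAL level in each library, which no scaling between libraries can change, *PAL1* and *PAL2* separated the groups. *PAL1* held 55.2% ± 0.673 (SD, n = 3) in mock and 58.6% ± 0.666 in Dex libraries, with mock libraries at 54.5% to 55.9% and Dex libraries at 58.2% to 59.4%. *PAL2* held 22.4% to 26.9% in mock and 19.6% to 21.7% in Dex libraries, and the groups again did not overlap. In both shares mock replicate 2 was the mock library nearest to the Dex libraries, at 55.9% for *PAL1* and 22.4% for *PAL2*, where the highest Dex library had 21.7%. The exact permutation p (two-sided) was 0.1 for each, the smallest that 3 against 3 libraries allow, and 0.5 after Benjamini-Hochberg adjustment over the 10 shares and ratios compared. The shares of *4CL1*, *4CL2*, *4CL5*, *PAL3*, *PAL4* and *CAD5* and the ratios of *COMT1* to *CCoAOMT1* and of *F5H* to *C3H* had exact permutation p-values of 0.3 to 0.9.

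**Figure D3:**
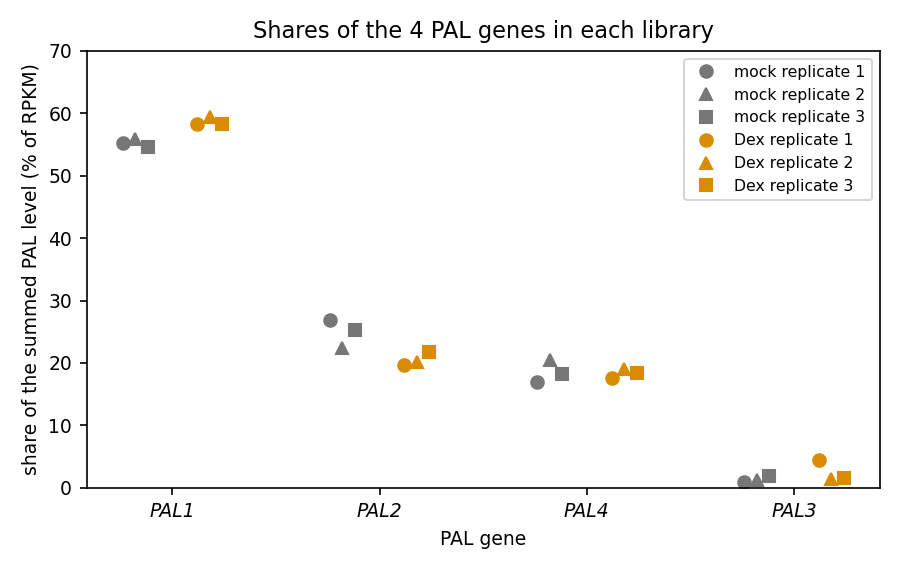
Share of each PAL gene in the summed PAL level (% of RPKM) in each library, mock in grey and Dex in orange. *PAL1* lies at 54.5% to 55.9% in mock and 58.2% to 59.4% in Dex libraries, *PAL2* is lower in each Dex library than in any mock library, and the groups overlap for *PAL4* and *PAL3*.

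The genes of the next steps showed small differences. *C4H* (AT2G30490), which hydroxylates cinnamate, had 940, 914 and 760 CPM in mock and 753, 940 and 863 CPM in Dex libraries, and the groups covered the same range (log2 fold change −0.03). *4CL1* (AT1G51680), which links the acid to coenzyme A, had 824, 956 and 690 CPM in mock and 905, 1145 and 996 CPM in Dex libraries. Only mock replicate 2 reached into the Dex range (0.30 ± 0.16, edgeR adjusted p = 0.296). *4CL2* had 33.5, 45.2 and 32.0 CPM in mock and 47.3, 51.1 and 42.7 CPM in Dex libraries. Again mock replicate 2 alone overlapped with the Dex libraries, and the log2 fold change went from 0.35 (edgeR adjusted p = 0.197) to 0.52 (adjusted p = 0.0129) without it. *4CL3*, known from the flavonoid branch, had at most 10.3 CPM and a wide spread, with 10.3 CPM in mock replicate 3 and 3.40 CPM in Dex replicate 3 as the highest values of their groups.

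In the shikimate ester steps around the ring hydroxylation the groups overlapped. *HCT* (AT5G48930), which makes and opens the shikimate ester, had 676, 735 and 588 CPM in mock and 687, 807 and 739 CPM in Dex libraries. *C3H* (AT2G40890), the ring hydroxylase, had 485, 324 and 373 CPM in mock and 418, 507 and 477 CPM in Dex libraries. *CSE* (AT1G52760), the esterase that frees caffeate, had 437, 439 and 372 CPM in mock and 360, 415 and 405 CPM in Dex libraries. The Dex libraries of all 3 lay partly within the mock range, with log2 fold changes of 0.16, 0.25 and −0.08. *CCoAOMT1* (AT4G34050) had 1956, 1894 and 1688 CPM in mock and 1607, 2173 and 2110 CPM in Dex libraries, with the lowest of all values in Dex replicate 1 (0.09 ± 0.16, edgeR adjusted p = 0.783). For *CCR1* (AT1G15950), which begins the reduction of the side chain, 320, 363 and 338 CPM stood against 340, 393 and 417 CPM (0.17 ± 0.12). Of the reads of *CCR1* 63.7% were unique. On the TAIR10.1 annotation 68.7% of *CCR1* is covered by the antisense RNA gene *AT1G05213*, which has no entry in the deposited counts. Among other overlapping genes, *AT1G51670* (*4CL1*), *AT2G40880* (*C3H*) and *AT1G15960* (*CCR1*) had 0.226 to 1.69, 82.9 to 104 and 7.86 to 14.5 CPM over all libraries, and none of them passed. *C3H* also shares 529 bases with the antisense RNA gene *AT2G09205*, which, like *AT1G05213*, has no entry in the deposited counts. The minor form *CCR2* stayed between 0.86 and 2.35 CPM.

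For *F5H* and *COMT1* of the syringyl branch and for *CAD5* of the last reduction, log2 fold changes were 0.41 to 0.50, none passed, and mock replicate 2 was near the Dex libraries. *F5H* (AT4G36220), the hydroxylase that opens the syringyl branch, had 167, 466 and 258 CPM in mock and 450, 408 and 380 CPM in Dex libraries. Mock replicate 2 was the highest of all 6 (log2 fold change 0.48 ± 0.31, edgeR adjusted p = 0.400), and without it the value was 0.96 (adjusted p = 0.0067). *COMT1* (AT5G54160) had 1265, 1990 and 1321 CPM in mock and 2124, 2139 and 2198 CPM in Dex libraries. The Dex libraries were close together and all lay above the mock libraries, of which mock replicate 2 came closest (0.50 ± 0.19, edgeR adjusted p = 0.157, and 0.74 with adjusted p = 0.00584 without mock replicate 2). *CAD5* (AT4G34230), which with *CAD4* reduces the aldehydes to monolignols, had 397, 534 and 350 CPM in mock and 518, 593 and 586 CPM in Dex libraries. Mock replicate 2 overlapped with Dex replicate 1, and the log2 fold change went from 0.41 ± 0.16 (edgeR adjusted p = 0.186) to 0.60 (adjusted p = 0.0119) without mock replicate 2. *CAD4* differed by 0.20, with mock replicate 2 between the other mock libraries.

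Mock replicate 2 lay above both other mock libraries in 11 of the 19 monolignol genes, between them in 7 and below them in 1 (*C3H*), while among all genes it lay above in 42.3%, between in 23.7% and below in 34.0%. Among the 9 laccases tested it was the other way round: it lay below both other mock libraries in 8 and above them in 1 (*LAC5*). In sum, monolignol genes took 0.831% to 1.08% of all reads in mock and 1.06% to 1.20% in Dex libraries, and laccases 0.195% to 0.266% and 0.185% to 0.264%. Markers of green cortex and epidermis differed with the same library, while those of phloem and cambium did not. Summed levels of 4 photosynthesis genes of the green cortex were 10259 and 9599 CPM in mock replicates 1 and 3, 5655 CPM in mock replicate 2 and 4742 to 6549 CPM in Dex libraries, and those of 4 epidermis genes 762 and 810, 497 and 415 to 560 CPM. None of these 8 passed with all 6 libraries, and without mock replicate 2 the 4 cortex genes and 1 epidermis gene were lower. Summed levels of 5 phloem genes were 364 to 401 CPM in mock (395 in mock replicate 2) and 341 to 358 CPM in Dex libraries. Those of 4 cambium genes were 384 to 494 CPM in mock (494 in mock replicate 2) and 403 to 473 CPM in Dex libraries. None of the phloem or cambium genes passed with all 6 libraries, and 1 phloem gene was lower without mock replicate 2. The part of these tissues in the differences of the lignin genes was not tested. In bulk tissue, fewer cells of a type and less RNA per cell cannot be told apart.

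**Figure D4:**
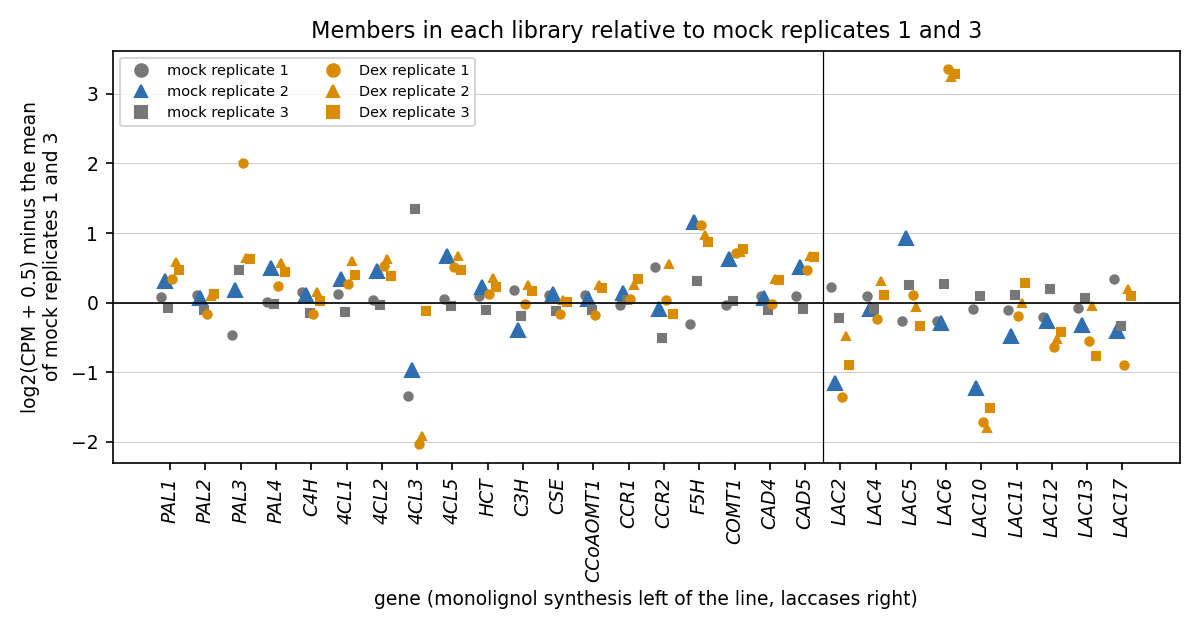
Level of each of the 28 genes in each library as log2(CPM + 0.5) minus the mean of mock replicates 1 and 3, with mock replicate 2 as large blue triangles, mock replicates 1 and 3 in grey and Dex libraries in orange. Mock replicate 2 lies beside the Dex libraries for *F5H*, *COMT1*, *CAD5*, *LAC2* and *LAC10*, but not for *LAC6*.

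Of the 17 laccases, 9 were tested, and 1 rose and 1 fell (edgeR, adjusted p under 0.05), where 4.63% of all genes tested rose and 2.07% fell. *LAC6* rose 10.8-fold and the ratio of Dex to mock for *LAC10* was 0.384. Both were minor laccases in these stems. In the mock libraries *LAC6* made up 0.369% to 0.619% and *LAC10* 2.72% to 5.60% of the summed laccase RPKM, and in the Dex libraries 4.61% to 7.27% and 1.33% to 2.09%. The summed laccase level was 972 to 1322 RPKM in mock and 928 to 1314 RPKM in Dex libraries. The groups did not overlap in 1 higher gene (*LAC6*) and 2 lower genes (*LAC10* and *LAC12*), beside 15.2% and 12.1% of all genes. The median log2 fold change of the 9 was −0.43. Without mock replicate 2, 1 was higher (*LAC6*) and 3 were lower (*LAC2*, *LAC10* and *LAC12*), where 7.96% of all genes were lower.

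By RPKM of all reads, the 4 most abundant laccases were *LAC4*, *LAC2*, *LAC17* and *LAC12*. By unique reads *LAC17* (26.7 RPKM in mock libraries) lay below *LAC10* (50.9 RPKM). *LAC4* (AT2G38080) had 1343, 1176 and 1180 CPM in mock and 1070, 1556 and 1360 CPM in Dex libraries, and the Dex libraries spanned the mock range (log2 fold change 0.11 ± 0.16, edgeR adjusted p = 0.739). *LAC2* (AT2G29130) had 756, 292 and 552 CPM in mock and 253, 465 and 348 CPM in Dex libraries. Mock replicate 2 lay within the Dex range, and the log2 fold change was −0.59 ± 0.33 (edgeR adjusted p = 0.330) with it and −0.88 (adjusted p = 0.0272) without it. *LAC17* (AT5G60020), with *LAC4* known from stem lignin, had 313, 187 and 195 CPM in mock and 133, 284 and 264 CPM in Dex libraries, which overlapped (−0.03 ± 0.29). Of its reads 23.3% were unique, and the antisense RNA gene *AT5G60022* covers 91.9% of it on TAIR10.1, with 7 to 56 reads in a library and no call (edgeR adjusted p = 0.321). *LAC12* (AT5G05390) had 168, 161 and 222 CPM in mock and 124, 134 and 143 CPM in Dex libraries. Every Dex library was below every mock library, but the difference did not pass (−0.45 ± 0.14, edgeR adjusted p = 0.0891). DESeq2 (adjusted p = 0.0254, with 4.9% of all genes called lower) and the fit without mock replicate 2 (adjusted p = 0.0226) called it lower.

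*LAC10* (AT5G01190) had 106, 47.9 and 120 CPM in mock and 34.1, 31.9 and 39.2 CPM in Dex libraries. The 3 Dex libraries were close together and below all mock libraries, while mock replicate 2 was far below the other 2. The mean went from 91.2 ± 38.2 to 35.0 ± 3.74 CPM (SD, n = 3), and the log2 fold change was −1.38 ± 0.29 (edgeR adjusted p = 0.0265). The call was lost without mock replicate 1 (adjusted p = 0.104), without mock replicate 3 (adjusted p = 0.0685) and without Dex replicate 1, 2 or 3 (adjusted p = 0.115, 0.114 and 0.0849), and held without mock replicate 2 (log2 fold change −1.69, adjusted p = 3.23e-05). It passed in 11 of 19 alternatives, with log2 fold changes of −1.69 to −1.13.

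*LAC6* (AT2G46570) lies on the plus strand at chr2:19126272-19129069 of TAIR10.1 and, on that annotation, shares its whole length with *AT2G46572*, a long noncoding RNA gene on the other strand. Its level was 8.62, 8.49 and 12.7 CPM in mock and 111, 103 and 106 CPM in Dex libraries. The groups lay far apart, with mock replicate 2 among the mock libraries. The log2 fold change was 3.43 ± 0.16 (edgeR adjusted p = 1.63e-05). It passed in all 19 alternatives, each single library left out included, with values from 3.28 to 4.05. Only 12.9% of its reads were unique, and whether the counting used strand is not stated, so most reads could not be assigned to *LAC6* or *AT2G46572* by position.

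Exon-exon reads are those counted across an exon boundary of the annotated spliced gene. *LAC6* has 5 introns. The entry of *AT2G46572* counts no exon reads in any library, so it could hold no exon-exon reads. Their absence there cannot show which gene such reads came from. All 5 introns begin with GT and end with AG on the plus strand, the strand of *LAC6*. The joined exon ends that an exon-exon read must cross are printed here from TAIR10.1, read 5′ to 3′ in the sense of *LAC6*. The last 15 bases of the upstream exon are in lower case and the first 15 of the downstream exon in capitals.
Exons 1 and 2, across chr2:19126983-19127133: ttctaccaattcaagGTACAAACAATAAGA
Exons 2 and 3, across chr2:19127286-19127376: taccacaattcattgGCATGGTATTAAGCA
Exons 3 and 4, across chr2:19127622-19127699: atacaattctcctagGAGAGTATTGGCTTA
Exons 4 and 5, across chr2:19127829-19127917: attgctcctctaaagATGTTTATGAGATTC
Exons 5 and 6, across chr2:19128860-19128938: ttgccaacaatccagGGCTCTGGTTATTGC

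The unique reads of *LAC6* numbered 9, 24 and 28 in mock and 357, 387 and 432 in Dex libraries. Its exon-exon reads numbered 9, 28 and 36 in mock and 398, 407 and 474 in Dex libraries, so some of them were not unique. Every Dex library lay far above every mock library. On the CPM scale this was 1.02 ± 0.576 in mock and 15.5 ± 0.956 in Dex libraries (SD, n = 3), with a log2 fold change of 3.90 when exon-exon reads of all genes were tested (edgeR adjusted p = 1.5e-05). Exon-exon reads made up 14.1% to 14.9% of the exon reads of *LAC6* in Dex libraries, 12.8% and 12.5% in mock replicates 2 and 3, and 4.71% in mock replicate 1 (exact 95% interval 2.18% to 8.76%, counting error only). In *LAC4*, which no annotated gene covers, the share was 12.8% to 13.3% in mock libraries. The reads counted for the antisense gene differed too. Which strand they came from cannot be told, because whether the counting used strand is not stated. *AT2G46572* had 3, 5 and 6 unique reads in mock and 68, 101 and 119 in Dex libraries (log2 fold change of unique reads 4.09, edgeR adjusted p = 0.000563). *AT2G46567*, which overlaps 111 bases of *LAC6*, had 0 to 13 reads in a library.

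**Figure D5:**
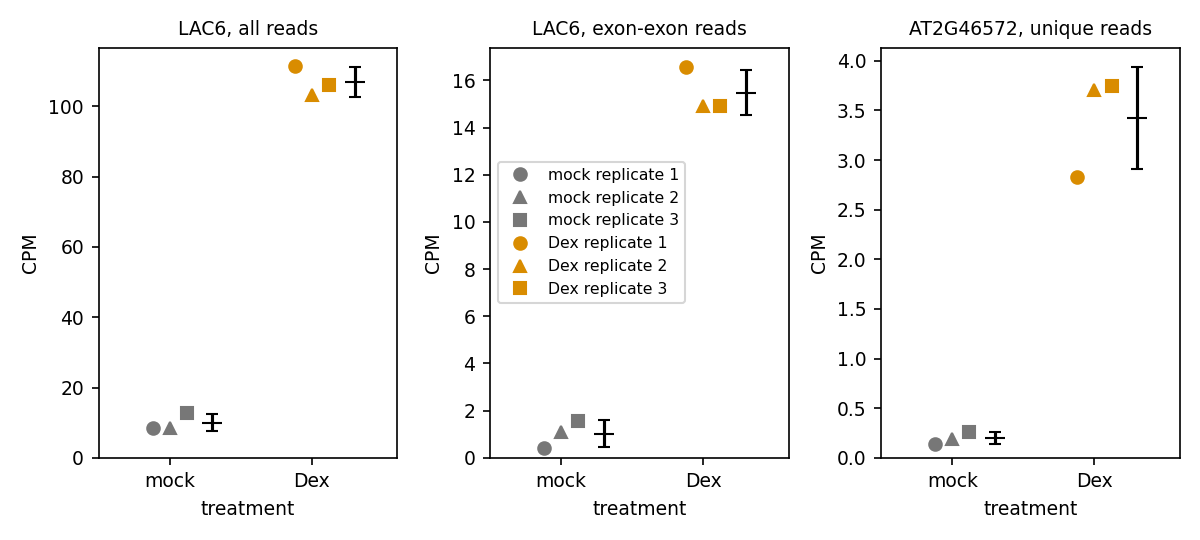
CPM of *LAC6* from all reads, of *LAC6* from exon-exon reads only, and of *AT2G46572* from unique reads, one point per library, with mean and SD (n = 3) beside them and axes from 0. In all 3 panels every Dex library lies above every mock library, and exon-exon reads of *LAC6* averaged 1.02 CPM in the mock group against 15.5 CPM in the Dex group.

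The remaining laccases were low or without reads. *LAC11*, a partner of *LAC4* and *LAC17* in lignification, had 28.8 to 49.1 CPM, *LAC5* 12.9 to 31.5 CPM and *LAC13* 1.01 to 2.20 CPM, and none of them passed. *LAC3*, *LAC8*, *LAC9*, *LAC14*, *LAC15* and *LAC16* had 0 reads among 154199499, which allows up to 0.0195 CPM (3 counts over all libraries). *LAC15* is known from the seed coat. *LAC1* had 11 reads, 9 in mock and 2 in Dex libraries, and *LAC7* had 2 reads in Dex libraries.

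Several laccase transcripts are targets of microRNAs of the copper response in *Arabidopsis*. The mature sequences are given to show which laccases share a pairing site (RefSeq, TAIR10.1, written with T, with the seed, bases 2 to 8, in capitals). MIR397a and MIR397b share a seed.
MIR397a: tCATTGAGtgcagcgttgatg
MIR397b: tCATTGAGtgcatcgttgatg
MIR408: aTGCACTGcctcttccctggc
MIR857: tTTTGTATgttgaaggtgtat
The best-paired sites for MIR397a lay in the coding sequences of *LAC2*, *LAC4* and *LAC17*, 3 of the 4 most abundant laccases by RPKM of all reads. For MIR408 the best-paired site lay in *LAC12*, with an equally paired site in *LAC13*. MIR857 paired best with *LAC7* (penalty 1.5 as counted below, across an exon boundary), a gene with 2 reads here. In the sites, capitals mark Watson-Crick pairs, and lower case G:T pairs or mismatches.
LAC2, MIR397a, chr2:12526364-12526384, minus strand: aATCAAtGCTGCACTCAATGA
LAC4, MIR397a, chr2:15936120-15936140, plus strand: agTCAACGCTGCACTtAATGA
LAC17, MIR397a, chr5:24169068-24169088, plus strand: aATCAAtGCTGCACTtAATGA
LAC12, MIR408, chr5:1594966-1594986, plus strand: GCCgGtGAAGAGGCtGTGCAa
Counting 1 for a mismatch and 0.5 for a G:T pair, these sites had penalties of 1.5, 2, 2 and 3.5. The best site of *LAC6* for any of the 4 microRNAs had 4, and that of *LAC10* 4.5. *LAC3* with MIR408 and *LAC16* with MIR397a also had 4. No penalty was set as the limit of a target, so these values do not tell targets from other genes. The genes *MIR397A*, *MIR397B* and *MIR857* had 0 reads and *MIR408* 7 reads in these libraries, which do not measure mature microRNAs.

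Promoters of lignin genes often hold AC elements, bound by MYB factors, and auxin response elements are bound by ARF factors. AC elements on either strand, written ACCTACC (AC-I), ACCAACC (AC-II) and ACCTAAC (AC-III), were present in the 250 bases before the gene start of 7 of the 19 monolignol genes and of 6 of the 17 laccases, and in 6.12% of 27443 protein-coding promoters of the same length. The auxin response element TGTCTC (both strands) was present in 3 monolignol genes (*PAL2*, *4CL2* and *COMT1*) and 2 laccases (*LAC1* and *LAC17*), beside 10.9% of all promoters, and TGTCGG in none of the 36, beside 4.16%. No motif lies within another, although matches of different motifs can overlap at their ends. The promoters of *LAC6* and *LAC10*, which passed the test, and of *4CL2*, which holds both kinds of element, are shown (TAIR10.1, 5′ to 3′ in the sense of each gene and ending at the base before its start, with matches to a motif in capitals).
LAC6, chr2:19126022-19126271, plus strand: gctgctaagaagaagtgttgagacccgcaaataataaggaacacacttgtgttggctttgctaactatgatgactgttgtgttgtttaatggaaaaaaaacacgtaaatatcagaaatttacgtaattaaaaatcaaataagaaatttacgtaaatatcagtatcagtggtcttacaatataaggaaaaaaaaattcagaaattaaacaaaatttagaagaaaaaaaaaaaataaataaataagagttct
LAC10, chr5:72042-72291, plus strand: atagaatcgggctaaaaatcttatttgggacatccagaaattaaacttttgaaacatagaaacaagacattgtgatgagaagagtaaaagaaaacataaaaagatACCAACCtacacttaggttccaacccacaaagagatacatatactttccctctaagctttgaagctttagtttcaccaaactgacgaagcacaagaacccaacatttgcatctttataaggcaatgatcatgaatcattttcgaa
4CL2, chr3:7457405-7457654, minus strand: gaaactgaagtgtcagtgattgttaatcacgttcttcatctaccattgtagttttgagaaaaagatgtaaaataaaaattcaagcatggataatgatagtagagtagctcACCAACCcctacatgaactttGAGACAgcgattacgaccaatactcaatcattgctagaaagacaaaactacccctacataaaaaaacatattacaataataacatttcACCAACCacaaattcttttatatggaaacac
In *LAC10* the match was ACCAACC. In *4CL2* both AC elements read ACCAACC and the auxin response element, on the other strand, reads GAGACA. *LAC6* held none of these motifs in this window, and other forms of the elements or positions farther from the gene were not searched.

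Genes linked to the pathway from 6 lists were tested in the same fit. Of 92 listed genes 77 were tested, none rose and 5 fell (edgeR, adjusted p under 0.05), beside 4.63% and 2.07% of all genes. At an unadjusted p under 0.05, 7 were higher and 8 lower, beside 12.4% and 10.2% of all genes. DESeq2 called 1 higher and 6 lower, beside 7.23% and 4.9%. Without mock replicate 2, 6 of the 77 were higher and 10 lower, beside 9.79% and 7.96%, and *ARPN*, a copper protein gene below the read minimum with all 6 libraries, was lower too. Without Dex replicate 2 or 3 none was lower. Of the 20 shikimate and phenylalanine genes, which supply the pathway, none passed, and 2 were higher at an unadjusted p under 0.05. The most abundant were *DHS3*, the first enzyme of the shikimate pathway, at 612 to 733 CPM in mock and 701 to 840 CPM in Dex libraries, and *ADT5*, an arogenate dehydratase that completes phenylalanine, at 203 to 301 and 257 to 299 CPM. Of 18 relatives and side enzymes tested, 1 fell: *CYP84A4* (AT5G04330), the close relative of *F5H*, went from 13.5, 8.06 and 11.9 CPM to 4.58, 5.43 and 4.91 CPM. Every Dex library was below every mock library (−1.16 ± 0.22, edgeR adjusted p = 0.0172), but the call was lost without mock replicate 1 (adjusted p = 0.0728) and without Dex replicate 1, 2 or 3 (0.0809, 0.0653 and 0.0778). *UGT72B1*, a glucosyltransferase of monolignols, had 348 to 468 CPM in mock and 404 to 525 CPM in Dex libraries, and *ATR2*, a reductase that serves the P450 enzymes, 186 to 206 and 205 to 278 CPM. Neither passed.

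Among 23 regulators of lignin and the secondary wall, 1 fell, beside 2.07% of all genes tested. *VND6* (AT5G62380), a NAC factor known as a switch to vessel cells, had 4.79, 5.76 and 6.81 CPM in mock and 2.00, 0.62 and 0.79 CPM in Dex libraries. The groups lay well apart (−2.36 ± 0.43, edgeR adjusted p = 0.0153), but the call was lost without Dex replicate 2 (adjusted p = 0.0628) or 3 (0.0736). The most abundant regulators, *MYB103*, linked to syringyl lignin, and *KNAT7*, a homeodomain factor of the secondary wall, had 301 to 354 and 194 to 222 CPM in mock and 338 to 422 and 228 to 283 CPM in Dex libraries and did not pass.

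Of the class III peroxidases linked to lignin, 3 of 6 tested genes fell, beside 2.07% of all genes tested. *PRX17* (AT2G22420) differed in the other direction, with 3.43, 5.02 and 3.40 CPM in mock and 7.41, 6.01 and 6.54 CPM in Dex libraries. Its groups did not overlap, as for 15.2% of all genes in that direction, but it did not pass (0.75 ± 0.23, edgeR adjusted p = 0.0894). DESeq2 and the fit without mock replicate 2 (0.96, adjusted p = 0.0177) called it higher. *PRX64* (AT5G42180), known from lignin of fibres and of the root endodermis, had 1173, 640 and 1427 CPM in mock and 373, 503 and 585 CPM in Dex libraries. *PRX71* (AT5G64120) had 145, 105 and 93.2 CPM in mock and 62.0, 42.5 and 72.6 CPM in Dex libraries. *PRX47* (AT4G33420) had 0.50, 1.67 and 1.77 CPM in mock and 0.08, 0.15 and 0.19 CPM in Dex libraries. In all 3 every Dex library was below every mock library, as in 12.1% of all genes. Their log2 fold changes were −1.15 ± 0.28, −0.95 ± 0.22 and −3.16 ± 0.66 (edgeR adjusted p = 0.0474, 0.0360 and 0.0263). These calls passed in 8, 11 and 9 of 19 alternatives. Each was lost without any single Dex library (adjusted p of 0.10 to 0.18 for *PRX64*, 0.0582 to 0.123 for *PRX71* and 0.0917 to 0.111 for *PRX47*). *PRX64* was also lost without mock replicate 1 (0.149) or 3 (0.124), *PRX71* without mock replicate 1 (0.116) and *PRX47* without mock replicate 3 (0.0826). The root endodermis markers *CASP1*, *CASP2* and *MYB36* summed to 0 CPM in mock and at most 0.377 CPM in Dex libraries. Neither the 6 flavonoid genes tested, led by *CHS* (1.17 to 102 CPM in mock and 3.04 to 24.8 CPM in Dex libraries), nor the 4 genes tested of the microRNA and copper list, led by the superoxide dismutases *CSD1* (565 to 667 and 512 to 581 CPM) and *CSD2* (337 to 379 and 307 to 336 CPM), held a gene that passed. *FLS1*, which makes flavonols from the same precursors, had 2.21 to 39.8 CPM in mock and 14.9 to 23.0 CPM in Dex libraries.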

How the data were processed

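RNA of second internodes was made into strand-marked (dUTP) libraries and sequenced as single reads of 50 bases. Alignment to TAIR10 and counting were done by the authors in CLC Genomics Workbench. The deposited tables give, per gene, counts of total and unique gene reads, exon reads and exon-exon reads, and the authors’ RPKM values, relative to exon length and the reads of the library. The sample labels gave the groups, and the methods the dose and time. The 5 entries without a gene name (0.0803% to 0.0998% of reads) were left out, and 96.8% to 97.1% of gene reads were unique. Whether counting used strand, and the annotation release, are not given in the sources used here.

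Total gene reads entered edgeR 4.0.16 under R 4.3.3, with its quasi-likelihood test (TMM factors 0.969 to 1.04, minimum count 10, minimum total 15), and p was adjusted by Benjamini-Hochberg over 19347 genes, with 0.05 as threshold. CPM values use these factors. The test was tried on simulated data. Alternatives were DESeq2 1.42.0, limma-voom (limma 3.58.1), RLE factors, library totals alone, no filter, at least 1 CPM in 3 libraries, unique reads, exon reads, limma on log2(RPKM + 1) or log2(RPKM + 0.1) of genes with a mean RPKM of at least 0.5 or without that filter, the replicate number as a block, each library left out, and exon-exon reads, the last chosen after seeing the data. The genes and lists were chosen with earlier results of these data known. Values in each library are given for genes that passed or had an unadjusted p under 0.05, for the most abundant gene of each step and for the 4 most abundant laccases. In the linked lists, up to 4 genes that passed are named or, with fewer than 2, the 2 most abundant, and *CYP84A4*, *VND6*, *PRX17* and *ARPN* were named after their values were seen. Sequences and overlaps come from the RefSeq genome and annotation of TAIR10.1, and the deposited tables carry no coordinates. The gene starts are those of RefSeq. The libraries of another transgenic line were not analysed here.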

Additional observations from a re-analysis of the deposited data

How the results depend on the processing

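The number of monolignol genes called higher was 0 and became 1 with DESeq2 and 0 to 7 with each library left out. For laccases called lower (1), DESeq2 gave 2, limma on log2(RPKM + 1), on log2(RPKM + 0.1) and without the RPKM filter gave 0 each, and leaving out a library gave 0 to 3. *LAC6* passed under every alternative run. Of the linked genes, none were called higher in the 6 libraries, 1 with DESeq2 and 0 to 6 with a library left out. The 5 called lower became 3 with limma-voom, 3 with at least 1 CPM in 3 libraries, 2 with limma on log2(RPKM + 1), 2 on log2(RPKM + 0.1), 1 without the RPKM filter, 1 with exon-exon reads (chosen after seeing the data) and 0 to 11 with a library left out (11 with *ARPN*, which was not tested with all 6 libraries). The highest of these counts came without mock replicate 2.

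The log2 fold change of *PAL2*, 0.00086, turned to −0.0062 with DESeq2, −0.0045 with limma-voom, −0.0062 with RLE factors, −0.00096 with unique reads and −0.0015 with the replicate block. With each library left out it ran from −0.062 to 0.091. The sign also changed, with a library left out, for *C4H* (−0.12 to 0.053), *4CL3* (−2.90 to 0.11), *CCR2* (−0.12 to 0.62), *LAC4* (−0.020 to 0.24) and *LAC17* (−0.22 to 0.24). None of these genes was called.

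The deviations of libraries of the same number had correlations of −0.10, 0.00017 and 0.21. Of the 6 libraries, 2 correlated best with their own number in the other group. Whether same-numbered libraries share a batch is not stated and cannot be told from these correlations. With the replicate block, 0 monolignol genes, 1 laccase higher, 1 laccase lower and 4 linked genes lower were called (*PRX64* was not, adjusted p = 0.0609), and 874 genes in all against 1295. RPKM levels from unique reads were lower for *LAC6* (0.509 in place of 5.69 in mock libraries), *LAC17* (26.7 in place of 111) and *CCR1* (157 in place of 237). With 3 libraries a group and 1 mock library apart from the others, small differences in abundant genes could not be settled, and intervals cover counting error only.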
